A study of Mus musculus with 4 samples.

Results

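Inhibitory myeloid receptors are cell-surface proteins that restrain activation of macrophages, microglia and granulocytes. The 10 genes described here were Lilrb4a, Pirb, Cd33, Sirpa, Cd300lf, Cd200r1, Clec12a, Siglece, Havcr2 and Vsir, taken by symbol from the 32285 genes counted. They were read in single-cell RNA-seq of live CD45+ cells, sorted from 2 regions of C57B6/J mice with a cortical brain injury: thalamus and hippocampus (HPC). Each region was run as 1 pooled library in which oligonucleotide tags marked 4 sets of cells, so there were 4 thalamus sets and 4 HPC sets. Per the study's methods 4 mice were pooled, and each set is taken here as 1 mouse. All mice were injured and no uninjured group is described here. The labels used here give neither sex nor days after injury for these mice. Because each region was its own library, a difference between regions and a difference between the libraries cannot be told apart.

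When many such receptors bind their ligands, tyrosines in the cytoplasmic tail are phosphorylated and recruit phosphatases such as SHP-1, which oppose the signals of activating receptors. Lilrb4a and Pirb are leukocyte immunoglobulin-like receptors, Pirb being a receptor for MHC class I. Cd33 and Siglece are sialic acid-binding lectins. Sirpa binds CD47, the "do not eat me" signal, and Cd200r1 binds CD200, which neurons carry. Cd300lf binds lipids, Clec12a is a C-type lectin for crystals and dead cells, Havcr2 encodes TIM-3, and Vsir encodes VISTA. In resting microglia such receptors are known as brakes on phagocytosis and inflammation.

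A motif known to carry such an inhibitory signal is shown first, since it separates the members into a group with it and a group without it. The motif searched was isoleucine, leucine, valine or serine, then any residue, tyrosine, any 2 residues, and isoleucine, leucine or valine. It was looked for on the cytoplasmic side of the membrane segment in the longest annotated protein of each gene (GENCODE M21, GRCm38). It occurred in 6 of 10 members: 3 times in Pirb and in Sirpa, 2 times in Lilrb4a and in Cd300lf, and 1 time in Clec12a and in Siglece. It was not found in Cd33, Cd200r1, Havcr2 or Vsir, and Cd200r1 held an asparagine-proline-x-tyrosine motif, where x is any residue. For scale, 16.6% of 21057 annotated proteins held the motif in their last 100 residues. Unlike the search of the members, this one ignored the side of the membrane, and it also matched 6 of 10 members. Its Clec12a match is not the cytoplasmic one, which lies at residue 7 of 267. One coding sequence per member is printed on the coding strand, 5′ to 3′, with the codon of the tyrosine in capitals.
Lilrb4a, chr10:51496194-51496211, plus strand: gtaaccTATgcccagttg
Pirb, chr7:3712786-3712803, minus strand: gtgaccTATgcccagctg
Sirpa, chr2:129630077-129630094, plus strand: ctcaccTATgctgacctg
Cd300lf, chr11:115117648-115117665, minus strand: ctctgtTATgcagacctg
Clec12a, chr6:129350433-129350450, plus strand: attgttTATgcaaatctc
Siglece, chr7:43651585-43651602, minus strand: atacatTATgcgaccctc
All lie in coding exons. A match is a description of the annotated sequence and was not tested for function.

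Some members have near-identical relatives, which affects how their reads can be counted. Of the 60-base stretches within 500 bases of the 3′ ends of Lilrb4a transcripts, 54.3% also occurred in Lilr4b or Gm49339, so the level of Lilrb4a is uncertain against that paralog. For Pirb this share was 13.03%, with the activating Pira2 and related genes among the matches, and for Cd300lf it was 5.42%. The other 7 members shared none.

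After the filters 24939 cells with between 9789875 and 26636526 UMIs per set remained, a UMI (unique molecular identifier) standing for 1 captured RNA molecule. Cells were gated into classes by lists of 10 marker genes that held no member. The gates gave 19825 microglia, 2916 T or NK cells, 915 neutrophils, 173 monocytes, 106 dendritic cells, 79 B cells and 28 macrophages, and left 897 cells ungated. All 4 check markers outside the gates were highest in their own class for microglia, macrophages, neutrophils, T or NK cells and B cells. For monocytes and dendritic cells 2 of 4 were, so these labels are less certain. No barcode was shared by sets of 1 region, and between 1 and 10 were shared by pairs of sets of different regions. HPC set 1 stood apart: it held 502 of the 915 neutrophils, and 29.5% of its microglia were gated homeostatic against 66.6% to 77.1% in the other HPC sets.

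Among the classes with enough sets for a test, most members were highest in microglia or in neutrophils. Levels are given as UMIs of the gene per 10000 UMIs of the same set and class, and are compared between cells for 1 gene at a time. Sirpa, Vsir and Havcr2 were highest in microglia among the 3 classes that had enough sets for a test, whereas Lilrb4a, Pirb, Cd33, Cd300lf, Siglece and Clec12a were highest in neutrophils. Cd200r1 gave no pair of classes that differed beyond the spread between sets. Of 20 neighbouring pairs of classes compared within sets, 16 passed at an adjusted p under 0.05 by a two-sided exact sign-flip test. How many of all genes would pass was not computed, so the count is not read as particular to the members. With this exact test, pairs over 6 sets can go no lower than p = 0.0313, and pairs over 8 sets no lower than 0.00781. The test counts thalamus and HPC sets of the same number as separate units, which overstates replication if they share a mouse.

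**Figure D1:**
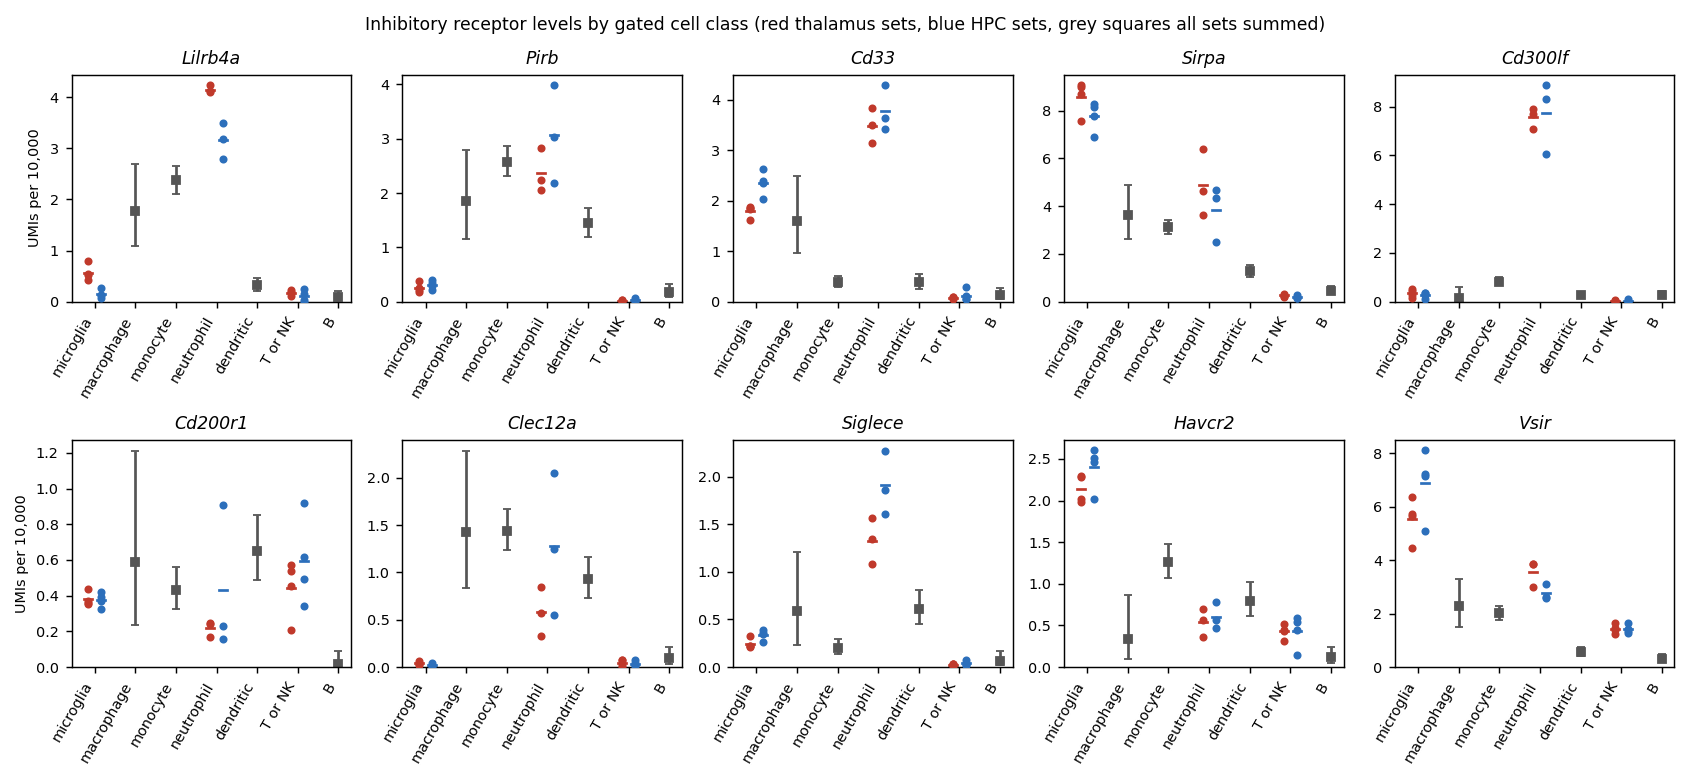
Levels of the 10 members (UMIs per 10000, vertical axis) in the 7 gated classes. Points are single sets with at least 20 cells of the class (thalamus red, HPC blue), short lines the means of each region, and grey squares in the 4 rarer classes are all sets summed with an exact 95% Poisson interval. Cd300lf in neutrophils sits at 6.06 or above in every set, and Sirpa in microglia at 6.90 or above.

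In microglia Sirpa had a level of 8.18 ± 0.75 UMIs per 10000 (SD, n = 8 sets), from 6.90 to 9.06. In the 6 sets with enough neutrophils its neutrophil level was 4.36 ± 1.28, below the microglial level in all 6 (exact test, adjusted p = 0.0391). T or NK cells had 0.231 ± 0.059. Vsir followed the same order, with 6.22 ± 1.22 in microglia, 3.17 ± 0.57 in neutrophils and 1.43 ± 0.15 in T or NK cells, and both steps passed (exact test, adjusted p = 0.0391 each). VISTA is known on T cells as well as on myeloid cells. Havcr2 had 2.27 ± 0.25 in microglia against 0.575 ± 0.153 in neutrophils (adjusted p = 0.0391, exact test), whereas neutrophils and T or NK cells did not differ beyond their spread (adjusted p = 0.243, exact test).

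Cd300lf levels in neutrophils ranged from 6.06 in HPC set 4 to 8.87 in HPC set 1, with a median of 7.79 over 6 sets. Microglia had 0.315 ± 0.140 over 8 sets, and the within-set difference from neutrophils was 4.04 ± 0.35 on the log2 scale with a pseudocount of 0.1 (SD, 6 of 6 sets, adjusted p = 0.0391, exact test). Neutrophils also exceeded microglia in 6 of 6 sets for Lilrb4a by 3.09 ± 0.61, for Pirb by 2.75 ± 0.24, for Siglece by 2.11 ± 0.26 and for Cd33 by 0.80 ± 0.27. Cd33 was high in both classes, with 3.63 ± 0.39 in neutrophils and 2.07 ± 0.34 in microglia. Clec12a had 0.931 ± 0.631 in neutrophils, and its microglial and T or NK levels, 0.0316 ± 0.0173 and 0.0392 ± 0.0306, did not differ beyond their spread (adjusted p = 0.641, exact test).

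The rarer classes had too few cells for a test and are given as sums over all sets with exact 95% Poisson intervals, which cover counting error only. Monocytes had 2.37 Lilrb4a UMIs per 10000 (interval 2.11 to 2.66), 2.58 of Pirb (2.31 to 2.87) and 1.44 of Clec12a (1.24 to 1.67). Those Clec12a counts compare with 0.0329 in microglia (interval 0.0294 to 0.0367). Macrophages, only 28 cells, had 1.77 of Lilrb4a (1.09 to 2.70) and 1.43 of Clec12a (0.832 to 2.29). Dendritic cells had 1.45 of Pirb (1.20 to 1.73) and 0.650 of Cd200r1 (0.487 to 0.850). B cells lay at or below 0.465 for all 10 members.

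Free RNA in droplets gives UMIs in cells that do not express a gene, so the share of T or NK cells with a UMI serves as a background. It can be too high where T or NK cells express the gene, as is known for Vsir. Cells were thinned to 1500 UMIs each for this, leaving out 407 microglia, 157 neutrophils and 25 T or NK cells that were shallower. After thinning, 65.5% of microglia held a Sirpa UMI against 3.15% of T or NK cells, and 58.5% against 19.4% held a Vsir UMI. Before thinning the Sirpa shares were 91.6% and 7.37%, at median depths of 4727 and 3599 UMIs per cell. For Clec12a the thinned share was 0.397% in microglia and 0.588% in T or NK cells. The microglial share joins 0.0868% in homeostatic-gated and 1.68% in DAM-gated cells, states that are defined below. The homeostatic share lies below that of T or NK cells, which thus give no floor for this gene. For Cd200r1 it was 5.27% in microglia and 5.98% in T or NK cells, which themselves can express this gene. Thinned neutrophils held UMIs of 2.92 members on average, microglia of 2.01 and T or NK cells of 0.394.

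Microglia were next divided by scores of other genes into homeostatic-gated cells (9263), DAM-gated cells (2708), interferon-gated cells (972) and 6882 cells between. DAM stands for disease-associated microglia, a state of lipid-handling, phagocytic cells known from injury and degeneration. The states are ranges cut from a score, and 1.19% of the cells scored lay within 0.05 of the DAM cut and 6.61% within 0.05 of the homeostatic cut. Most check genes outside the scores moved with the names. Spp1 had 97.0 UMIs per 10000 in DAM-gated cells and 0.538 in homeostatic-gated cells, and Ifitm3 had 7.09 in interferon-gated cells. Of 4 homeostatic check genes, P2ry13 (0.895 and 2.85), Crybb1 (0.282 and 2.47) and Upk1b (0.0543 and 0.664) were lower in DAM-gated than in homeostatic-gated cells, whereas Fcrls was not, with 13.8 and 11.2.

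The receptors split in opposite directions between states. In DAM-gated against homeostatic-gated microglia of the same set, Lilrb4a, Clec12a, Cd300lf and Pirb were higher, and Siglece, Vsir, Cd33 and Havcr2 were lower. Sirpa and Cd200r1 were not called. In edgeR's quasi-likelihood test the call was thus higher for 4 of 10 members and lower for 4 of 10, where 24.1% of all 11674 genes tested were called higher and 29.1% lower. Fold changes between states are on edgeR's TMM scale. On library sizes alone, an alternative chosen after seeing the data, the median log2 change of all genes moved from −0.07 to −0.26, and 1967 genes were called higher and 5277 lower in place of 2810 and 3397. The same 8 members were called in the same direction, and Sirpa was called lower in addition.

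**Figure D2:**
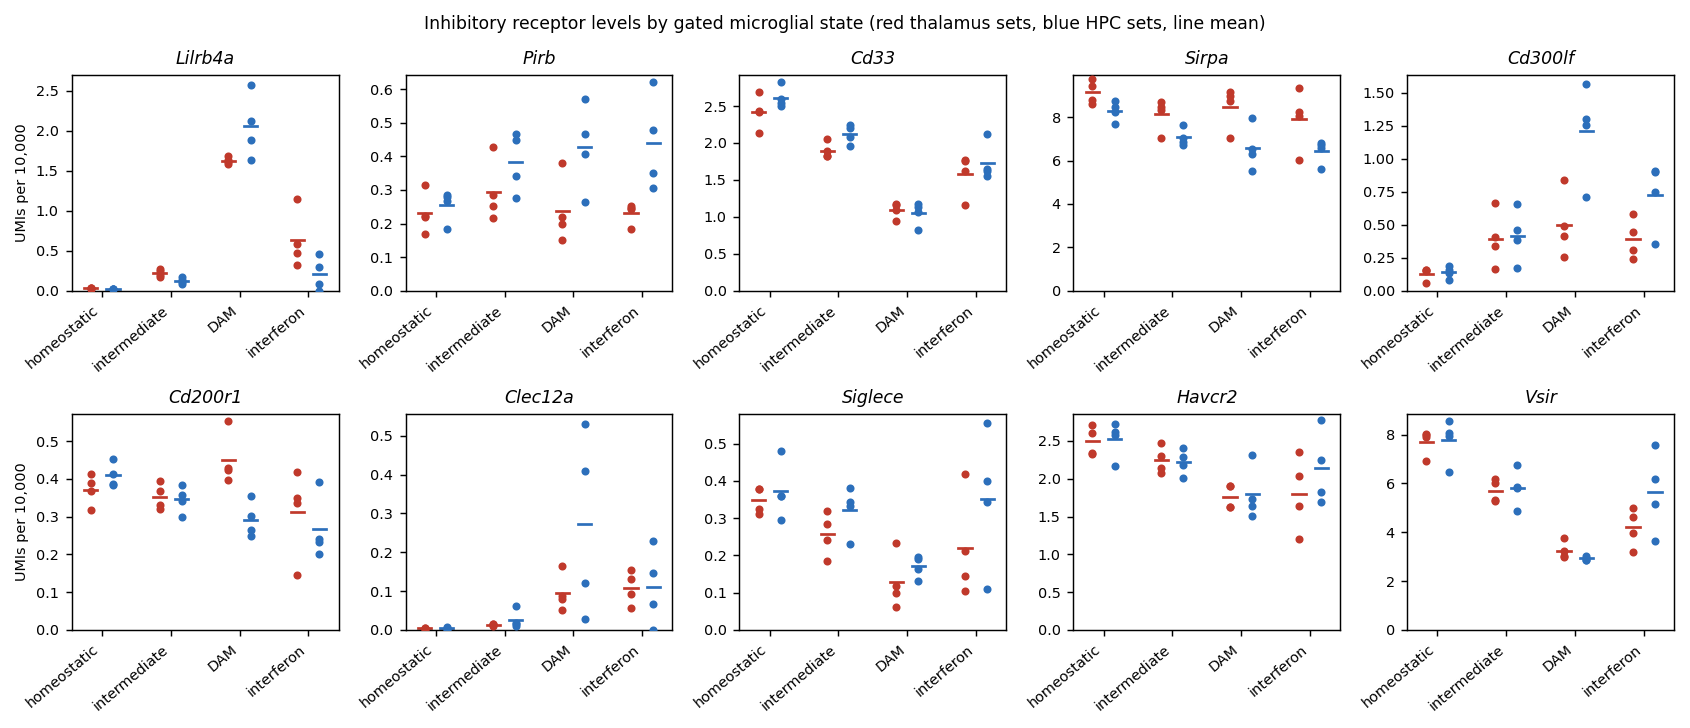
Levels of the 10 members (UMIs per 10000, vertical axis) in the 4 gated microglial states, with points for single sets (thalamus red, HPC blue) and lines for the means of each region. Lilrb4a rises from at most 0.0371 in homeostatic-gated cells to at least 1.58 in DAM-gated cells, and Vsir falls from at least 6.48 to at most 3.75.

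Lilrb4a showed the widest change. Its level in homeostatic-gated cells was 0.0216, 0.0301, 0.0371 and 0.0346 UMIs per 10000 in thalamus sets 1 to 4, and 0.0220, 0.0268, 0.0193 and 0.0179 in HPC sets 1 to 4. In DAM-gated cells it was 1.58, 1.61, 1.63 and 1.69 in the thalamus sets and 1.88, 1.64, 2.12 and 2.58 in the HPC sets. No set of one state overlapped any set of the other, and the share of all genes for which this holds was not computed. The log2 fold change was 6.31 ± 0.13 (SE, edgeR adjusted p = 2.24e-20, higher in 8 of 8 sets). Without thinning, 42.1% of DAM-gated cells held a Lilrb4a UMI against 1.13% of homeostatic-gated cells, and after thinning 18.9% against 0.402%. The thinned share in T or NK cells was 2.18% (95% interval 1.71% to 2.78%), above the homeostatic share (0.292% to 0.553%). T or NK cells thus give no floor for this gene, and whether the homeostatic share is background was not tested. Cells between the states had 2.18%. Its paralog Lilr4b also rose, by 4.45 ± 0.25 on the log2 scale (edgeR adjusted p = 7.07e-13), from 0.0103 ± 0.0029 to 0.214 ± 0.075 UMIs per 10000. Whether Lilr4b is inhibitory was not examined.

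Cd300lf rose by 2.62 ± 0.19 (log2, SE, edgeR adjusted p = 9.92e-11), from 0.134 ± 0.044 to 0.854 ± 0.474 UMIs per 10000 (SD, n = 8), in 8 of 8 sets. Its DAM-gated levels were spread widely, at 0.490, 0.836, 0.254 and 0.413 in thalamus sets 1 to 4 and 0.713, 1.30, 1.26 and 1.56 in HPC sets 1 to 4. Thalamus set 3 was the lowest in both states. The activating relatives Cd300lb and Cd300ld, which pair with adaptors instead of phosphatases, rose as well, by 5.75 ± 0.25 and 2.78 ± 0.36 (edgeR adjusted p = 1.25e-14 and 6.10e-07).

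Clec12a rose by 5.49 ± 0.40 (edgeR adjusted p = 6.91e-11) from a very low level, 20 UMIs in all homeostatic-gated cells, to 174 UMIs in all DAM-gated cells. That is 0.00455 UMIs per 10000 (exact Poisson interval 0.00278 to 0.00703) against 0.120 (0.102 to 0.139). Pirb rose by 0.49 ± 0.13 (edgeR adjusted p = 0.00251), with 0.242 ± 0.052 and 0.332 ± 0.146 UMIs per 10000. It was higher in 8 of 8 sets on the TMM scale but in 5 of 8 by UMIs per 10000, and on library sizes alone the change was 0.31 ± 0.13 (edgeR adjusted p = 0.0447). Its levels in DAM-gated cells were 0.218, 0.381, 0.152 and 0.199 in thalamus sets 1 to 4 and 0.406, 0.571, 0.265 and 0.4659 in HPC sets 1 to 4. Beside this, the thinned share of cells with a Pirb UMI, 3.32% in DAM-gated and 3.84% in homeostatic-gated cells, gives no order.

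Markers of other myeloid cells moved with these genes. The 10 monocyte gate genes summed to between 1.31 and 5.62 UMIs per 10000 over the sets in DAM-gated cells against 0.194 to 0.335 in homeostatic-gated cells, and to 92.0 in monocytes. The 10 macrophage gate genes summed to between 1.23 and 4.94 against 0.175 to 0.373, and to 109 in macrophages. In DAM-gated cells none of the monocyte genes was at 0 in either region, 1 of the macrophage genes was at 0 in the thalamus and 2 were in HPC, Lyve1 among them. Fn1, Ms4a7 and Dab2 made up most of the counts, with 1.64, 1.10 and 0.728 UMIs per 10000, and the monocyte genes Plac8 and Ly6c2 had 0.173 and 0.0453 against 38.5 and 8.42 in monocytes.

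Cells with a UMI of any of these 20 genes were 54.1% of DAM-gated and 16.6% of homeostatic-gated cells. In DAM-gated cells they held 62.1% of all UMIs but 171 of the 174 Clec12a UMIs (98.3%), 79.4% of Pirb, 72.4% of Lilrb4a and 71.8% of Cd300lf UMIs. When Fn1, Ms4a7 and Dab2 were taken off the list, cells with one of the other 17 genes held 25.6% of all UMIs, 25.4% of Lilrb4a, 28.0% of Cd300lf, 49.2% of Pirb and 82.8% of Clec12a UMIs. With the cells that held any of the 20 genes left out, Lilrb4a was still higher by 5.98 ± 0.18 (edgeR adjusted p = 1.23e-20) and Cd300lf by 2.14 ± 0.21 (2.30e-09). Pirb was then −0.28 ± 0.21 (edgeR adjusted p = 0.310), the opposite sign, and Clec12a had 3 UMIs left in DAM-gated cells and could not be fitted. In that alternative 1 HPC set had under 20 DAM-gated cells and was left out. The part that monocyte or macrophage RNA or cells play in the Pirb and Clec12a results was not otherwise tested. Of 17 dissociation genes tested, 4 were higher and 9 lower in DAM-gated cells, and 1 was higher and 8 lower in interferon-gated cells, and their part was not tested.

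**Figure D3:**
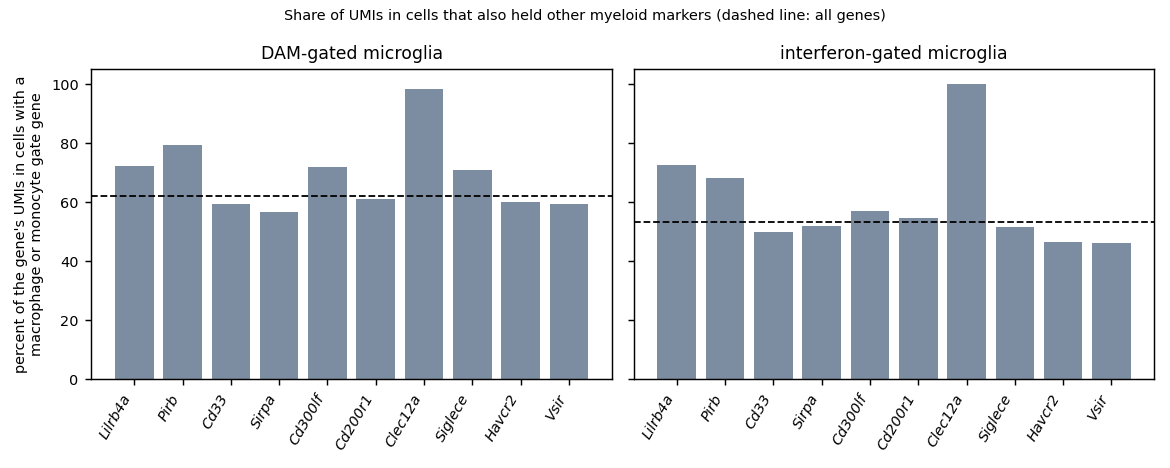
Percent of each member's UMIs (bars) found in DAM-gated or interferon-gated microglia that also held a UMI of a macrophage or monocyte gate gene, with the share of all genes' UMIs as a dashed line (62.1% and 53.3%). Clec12a stands at 98.3% and 100%.

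Of the 4 receptors called lower, Vsir fell by 1.13 on the log2 scale (SE 0.07, edgeR adjusted p = 5.02e-12), from 7.74 ± 0.68 to 3.09 ± 0.29 UMIs per 10000. Its highest DAM-gated set, 3.75, lay below its lowest homeostatic-gated set, 6.48. Cd33 fell by 1.01 (SE 0.07, edgeR adjusted p = 4.57e-11), from 2.52 ± 0.21 to 1.07 ± 0.13, and again no set of one state reached the other. Siglece fell by 1.18 (SE 0.15, edgeR adjusted p = 4.19e-07), from 0.360 ± 0.057 to 0.150 ± 0.057. Its highest DAM-gated set, 0.234, also lay below its lowest homeostatic-gated set, 0.295. Havcr2 fell by 0.32 (SE 0.07, edgeR adjusted p = 0.000358), from 2.51 ± 0.20 to 1.78 ± 0.26, in 8 of 8 sets. Across sets its states overlapped, the highest DAM-gated set having 2.32 and the lowest homeostatic-gated set 2.17. The share of all genes without overlap between the states was not computed.

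Without the cells that held macrophage or monocyte gate genes, Vsir, Cd33 and Siglece stayed called lower, with log2 changes of −0.96, −0.81 and −1.47. Havcr2 was then −0.23 ± 0.10 (edgeR adjusted p = 0.0572). The thinned shares went the same way: 67.5% of homeostatic-gated cells and 35.4% of DAM-gated cells held a Vsir UMI, and 31.2% and 14.9% held a Cd33 UMI.

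Sirpa and Cd200r1 were the members without a call. Sirpa had 8.71 ± 0.65 UMIs per 10000 in homeostatic-gated and 7.53 ± 1.36 in DAM-gated cells (log2 change −0.05 ± 0.07, edgeR adjusted p = 0.585). On library sizes alone it was −0.23 ± 0.07 (edgeR adjusted p = 0.00919), and by UMIs per 10000 it was higher in DAM-gated cells of 1 of 8 sets. Cd200r1 had 0.390 ± 0.039 and 0.371 ± 0.1004, with a fitted log2 change of 0.27 ± 0.11 (edgeR adjusted p = 0.0532). Its call turned on the processing: it was called higher with RLE size factors (adjusted p = 0.0241, edgeR) and not on library sizes alone, where the change was 0.08 ± 0.11 (edgeR adjusted p = 0.561). It was also called higher without the cells that held macrophage or monocyte gate genes (0.38 ± 0.15, edgeR adjusted p = 0.0445).

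**Figure D4:**
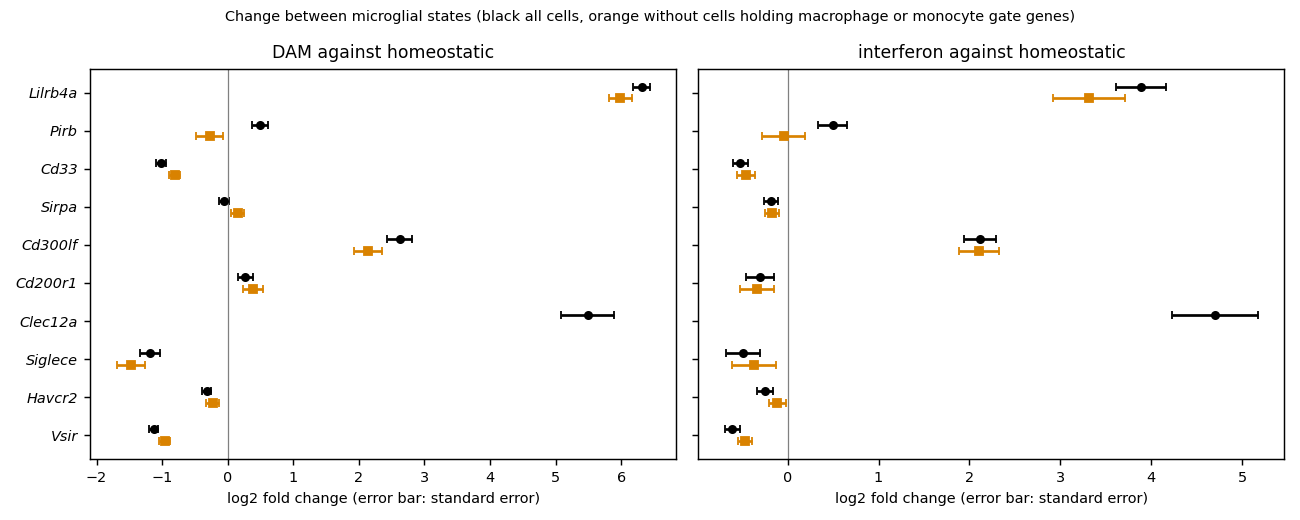
Log2 fold change of each member (horizontal axis, bars are standard errors) in DAM-gated and interferon-gated against homeostatic-gated microglia, with all cells in black and without cells holding macrophage or monocyte gate genes in orange. Lilrb4a keeps 6.31 and 5.98 in DAM-gated cells, whereas Pirb goes from 0.49 to −0.28.

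Interferon-gated microglia, chosen by genes such as Isg15 and Ifit1, shared part of this pattern. The comparison shares its homeostatic-gated sums with the one above, so the 2 are set side by side and not compared. In this fit the call was higher for 4 of 10 members, against 16.2% of 10690 genes, and lower for 3 of 10, against 11.7%. Lilrb4a rose by 3.89 ± 0.28 (edgeR adjusted p = 2.50e-12), to 1.14, 0.585, 0.471 and 0.326 UMIs per 10000 in thalamus sets 1 to 4 and 0.455, 0.294, 0 and 0.0876 in HPC sets 1 to 4. HPC set 3 had no Lilrb4a UMI in its 43 interferon-gated cells, so the gene was higher in 7 of 8 sets. Cd300lf rose by 2.12 ± 0.18 (edgeR adjusted p = 9.69e-11) in 8 of 8 sets, Clec12a by 4.70 ± 0.47 (2.73e-09) and Pirb by 0.50 ± 0.16 (0.0208, 6 of 8 sets). The Pirb call was lost on library sizes alone (edgeR adjusted p = 0.0684), without HPC set 1 (0.107), without HPC set 2 (0.0860), with a stricter class gate (0.0817) and with the interferon cut at the top 3% (0.109). On library sizes alone 1349 genes were called higher and 2155 lower, in place of 1733 and 1246.

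Vsir fell by 0.61 in interferon-gated cells (SE 0.08, edgeR adjusted p = 7.35e-07), Cd33 by 0.52 (SE 0.08, 1.70e-05) and Havcr2 by 0.25 (SE 0.09, 0.0355). The Havcr2 call was lost without thalamus set 1 (edgeR adjusted p = 0.128), thalamus set 2 (0.118) or HPC set 2 (0.0848), with the cut at the top 3% (0.112) and by DESeq2 (adjusted p = 0.0780). Siglece was just short of the threshold, at −0.49 ± 0.19 (edgeR adjusted p = 0.0502), and it was called lower with the cut at the top 3% (0.0439), without a low-count filter (0.00423) and on library sizes alone (0.0148). Sirpa was called lower in the same 3 settings, with log2 changes of −0.30, −0.25 and −0.29, and with a looser class gate (−0.23). Of the interferon-gated cells 303 (31.2%) also passed the DAM cut. With those left out, Lilrb4a was 2.81 ± 0.35 (edgeR adjusted p = 2.15e-08) and Cd300lf 1.95 ± 0.19 (1.65e-10), Pirb (0.213) and Havcr2 (0.0891) were no longer called, and Sirpa and Cd200r1 were called lower (0.00275 and 0.0170). All 64 Clec12a UMIs of interferon-gated cells lay in cells with a macrophage or monocyte gate gene. Without such cells Pirb was −0.05 ± 0.24 (edgeR adjusted p = 0.942) and Havcr2 −0.11 ± 0.10 (0.531). The calls were then higher for 2 and lower for 2 members, beside 968 and 611 of 9633 genes.

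The study asked how microglia of the thalamus differ from those of the HPC after cortical damage. Over all microglia-gated cells Lilrb4a was higher in the thalamus and Cd33 was lower. Lilrb4a had 0.788, 0.523, 0.423 and 0.551 UMIs per 10000 in thalamus sets 1 to 4 and 0.269, 0.123, 0.0639 and 0.137 in HPC sets 1 to 4. Every thalamus set lay above every HPC set, and HPC set 1 was the highest of its region. The log2 fold change was 1.96 ± 0.37 (SE, edgeR adjusted p = 0.0103). Cd33 had 1.62, 1.88, 1.86 and 1.83 in the thalamus sets and 2.03, 2.62, 2.40 and 2.35 in the HPC sets, all thalamus sets being lower, with a log2 fold change of −0.32 ± 0.06 (edgeR adjusted p = 0.0129).

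Of 10 members 1 was called higher, against 8.75% of 13276 genes, and 1 lower, against 4.45%. The thalamus sets lay above every HPC set for 11.6% of all genes and below for 8.97%. Sets of the same number deviated together, so the fit with the set number as a replicate block is given as well. It called 5 members: Lilrb4a higher by 2.04 ± 0.14 (edgeR adjusted p = 1.64e-05) and Sirpa by 0.21 ± 0.06 (0.0215), and Cd33 (−0.32, 0.000324), Siglece (−0.41, 0.0206) and Vsir (−0.24, 0.00291) lower. With that block 16.7% of all genes were called higher and 12.6% lower. The unblocked adjusted p was 0.0962 for Sirpa, 0.101 for Siglece and 0.227 for Vsir. Without thalamus set 2, Sirpa (edgeR adjusted p = 0.0391) and Siglece (0.0346) were called in the unblocked fit too, and without HPC set 1 Vsir was (0.0237). On library sizes alone 883 genes were called higher and 1041 lower, in place of 1161 and 591, with the same 2 members called.

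The make-up of the microglia differed between the regions in the same sets. DAM-gated cells were 33.8%, 22.5%, 17.2% and 24.0% of microglia in thalamus sets 1 to 4 and 8.74%, 3.16%, 1.51% and 3.11% in HPC sets 1 to 4. Homeostatic-gated cells were 15.6% to 47.4% in the thalamus and 29.5% to 77.1% in HPC. Lilrb4a, high in DAM-gated cells, was thus read in sums that held more of them in every thalamus set, and the part this plays was examined only by the comparisons within states. Genes raised by tissue dissociation also differed: 8 of 17 tested were higher in the thalamus and 0 lower. Their part in the member results was not tested. In T or NK cells Lilrb4a ranged from 0.104 to 0.226 in the thalamus and from 0 to 0.248 in HPC, which overlap.

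**Figure D5:**
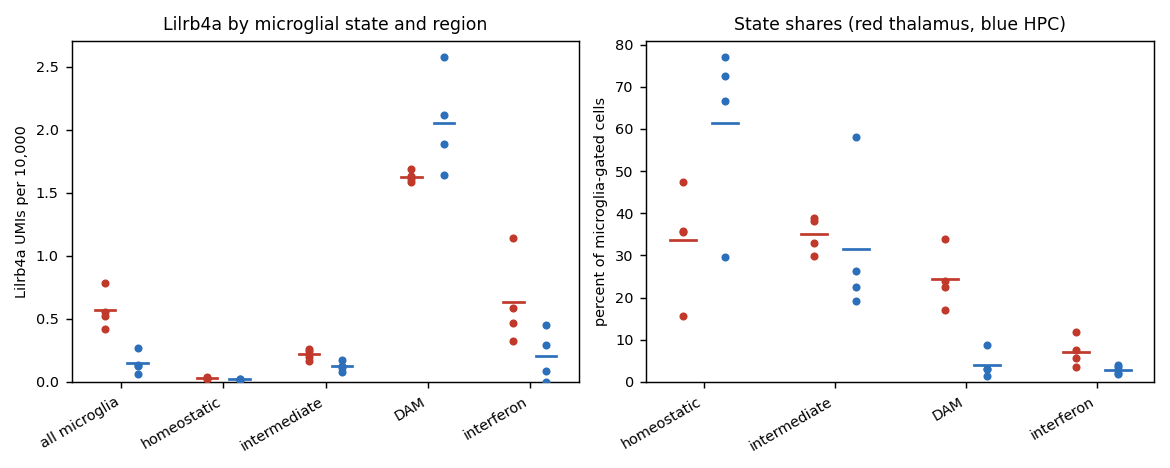
Left, Lilrb4a level (UMIs per 10000) in all microglia and in each state by set, with lines for the means of each region (thalamus red, HPC blue). Right, the share of microglia-gated cells in each state (percent) by set. Thalamus sets lie above HPC sets over all microglia, 0.423 or more against 0.269 or less, but overlap them in DAM-gated cells, while 17.2% or more against 8.74% or less of microglia are DAM-gated.

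Within homeostatic-gated microglia no member was called between regions, 0 of 9 tested, where 1.07% of 11653 genes were called higher and 0.403% lower. At an unadjusted p under 0.05, 1751 of those genes were counted, among the members Sirpa (0.14 ± 0.06, edgeR adjusted p = 0.292). Lilrb4a was 0.54 ± 0.27 (0.356) and Cd33 −0.13 ± 0.07 (0.427). DESeq2 likewise called 0 members. Clec12a was too low to be tested. Here 11 of 17 dissociation genes were higher in the thalamus.

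Within DAM-gated microglia no member was called either, 0 of 10, where 1.13% of 9883 genes were called higher and 0.486% lower. At an unadjusted p under 0.05 the count was 1300 genes. Lilrb4a was −0.24 ± 0.12 (edgeR adjusted p = 0.392), the opposite sign to the difference over all microglia. With the set number as a block 3 members were called: Sirpa higher by 0.44 ± 0.09 (edgeR adjusted p = 0.00716), and Pirb (−0.80 ± 0.19, 0.0165) and Cd300lf (−1.02 ± 0.20, 0.00325) lower in the thalamus, where 2.19% of genes were called higher and 1.00% lower. DESeq2 without the block called Sirpa and Cd300lf, and edgeR called Sirpa, Pirb and Cd300lf when thalamus set 2 was left out and Sirpa when HPC set 3 was. On library sizes alone 89 genes were called higher and 69 lower, in place of 112 and 48, and 0 members.

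Sirpa had 9.14, 7.04, 8.96 and 8.74 UMIs per 10000 in DAM-gated cells of thalamus sets 1 to 4 and 6.32, 5.51, 7.95 and 6.55 in HPC sets 1 to 4. Thalamus set 2 fell among the HPC sets. On TMM-scaled CPM, Cd200r1 and Vsir were higher in every thalamus set than in any HPC set, as 5.19% of all genes were. By UMIs per 10000 the Vsir sets overlapped, the lowest thalamus set having 2.97 and the highest HPC set 3.05, and the Cd200r1 sets did not. Cd200r1 had 0.396, 0.429, 0.423 and 0.552 against 0.354, 0.250, 0.265 and 0.301 (log2 fold change 0.56 ± 0.18, edgeR adjusted p = 0.150). HPC set 3 had only 30 DAM-gated cells, HPC set 4 66 and HPC set 2 103.

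Whether the change between states itself differed by region was tested as an interaction. No member was called, 0 of 10. Of 11674 genes, 0.326% were called with a more positive and 0.206% with a more negative log2 change in the thalamus. At an unadjusted p under 0.05 the count was 984 genes, and DESeq2 called 0 members. The members nearest the threshold were Cd200r1, with a difference of 0.73 ± 0.20 (edgeR adjusted p = 0.120), and Cd300lf, with −0.96 ± 0.31 (0.247). For Lilrb4a the difference was −0.74 ± 0.30 (0.456). Without HPC set 1, Cd300lf was called, at −1.45 (edgeR adjusted p = 0.00185). On library sizes alone 26 genes were called with a more positive and 40 with a more negative change, in place of 38 and 24.

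The signalling partners of these receptors were read from lists chosen with earlier results of these data known. Among 18 phosphatases, kinases and adaptors of inhibitory signalling, 5 were higher and 7 lower in DAM-gated than in homeostatic-gated cells, with a median log2 change of −0.03 against −0.07 over all genes, of which 24.1% were higher and 29.1% lower. Ptpn6, which encodes SHP-1, rose by 0.49 ± 0.07 (edgeR adjusted p = 3.98e-06). Inpp5d, the lipid phosphatase SHIP-1, fell by 0.83 (SE 0.06, edgeR adjusted p = 1.36e-10). Among the kinases, Fgr (3.22) and Fyn (1.33) were higher and Lyn (−0.39) and Src (−0.92) lower on the log2 scale. Between regions over all microglia 1 of 18 was higher, Fyn, by 0.92 ± 0.10 (edgeR adjusted p = 0.00102), and 1 lower, Src, where 8.75% of all genes were higher and 4.45% lower.

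Of 21 genes tested from the list of other inhibitory receptors, 12 were higher and 6 lower in DAM-gated cells, against 24.1% and 29.1% of all genes. The 12 include Lilr4b, which was placed on the list without examining whether it is inhibitory. The median log2 change was 0.64 against −0.07 over all genes. Cd72 rose by 2.91 ± 0.09 (edgeR adjusted p = 2.74e-17), Cd22 by 2.04 ± 0.14 (4.22e-11) and Cd274, which encodes PD-L1, by 1.65 ± 0.12 (8.41e-11). Clec4a2 fell by 1.52 (SE 0.13, 7.99e-10), Ceacam1, a TIM-3 ligand as well, by 2.04 (SE 0.19, 3.11e-09) and Lair1, a collagen receptor, by 0.43 (SE 0.07, 8.92e-06). Between regions 4 of 22 were higher in the thalamus over all microglia, among them Pdcd1, which encodes PD-1, by 2.06 ± 0.21 (edgeR adjusted p = 0.000912), and 3 were lower, against 8.75% and 4.45% of all genes. Pdcd1 was also higher in DAM-gated cells of the thalamus, by 2.64 ± 0.27 (0.000236). In microglia the T or NK gate genes summed to levels of 1.25 to 1.89 in thalamus and 0.790 to 1.31 in HPC sets. In DAM-gated cells the sums were 1.05 to 1.29 and 0.0662 to 1.07, against 70.4 in T or NK cells. In both cases the ranges overlap only through HPC set 1 (1.31 and 1.07). HPC sets 2 to 4 had 0.846, 0.790 and 0.799 in microglia and 0.696, 0.0662 and 0.110 in DAM-gated cells, below every thalamus set. The part that T or NK RNA or cells play in the Pdcd1 results was not tested.

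Of 12 activating counterparts and adaptors tested in DAM-gated cells, 8 rose and 4 fell, against 24.1% and 29.1% of all genes, with a median log2 change of 0.75 against −0.07. Cd200r4, an activating relative of Cd200r1, rose by 3.73 ± 0.21 (edgeR adjusted p = 1.33e-12), and the adaptors Tyrobp and Fcer1g by 0.91 ± 0.10 and 0.59 ± 0.08. Siglech, 1 of the 4 that fell, was used by the homeostatic score and is no finding, which leaves 8 and 3 of 11. Of 10 ligands tested 5 rose and 4 fell, against the same shares of all genes. The MHC class I genes H2-D1 and H2-K1, ligands of Pirb, rose by 1.43 ± 0.09 and 1.26 ± 0.09, whereas Cd47, the ligand of Sirpa, fell by 0.21 (SE 0.07, edgeR adjusted p = 0.0134) and Lgals9, a ligand of TIM-3, by 0.26 (SE 0.06, 0.00167). Selplg, a ligand of VISTA, was used by the homeostatic score, and Fn1, a ligand of Lilrb4a, by the monocyte gate. Without both, 4 of 8 ligands rose and 3 fell.

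The genes most like each member in their pattern over 29 class-by-set sums were named by Pearson's r among 9191 genes, as a description over points that share libraries and depth. For Sirpa they were Atp6v0b (0.98), Maml3 (0.98) and Lpcat2 (0.97), and for Vsir Ctsd (0.94), Adam10 (0.93) and Atp6v1c1 (0.93). Pirb was most like Alox5ap (0.97), Themis2 (0.94) and Rasgrp4 (0.93), and Cd300lf like Tpd52 (0.95), 6430548M08Rik (0.94) and Sfxn5 (0.93). Lilrb4a followed Ftl1 (0.92), Dusp1 (0.91) and Rnf149 (0.91), the second of which is among the dissociation genes. Clec12a followed Ifitm6 (0.94), Cfp (0.93) and Sirpb1a (0.93), of which Ifitm6 was in the monocyte gate. Siglece was most like Nfam1 (0.94), Ampd3 (0.93) and Acsl1 (0.93), Cd33 like Gnaq (0.94), 2010013B24Rik (0.93) and Rassf2 (0.93), and Havcr2 like Cyth4 (0.90), Rtn4 (0.89) and Laptm5 (0.89). Cd200r1 had the least alike partners, Ewsr1 (0.80), Rab29 (0.74) and Lypla1 (0.71).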

How the data were processed

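The authors deposited filtered UMI count matrices from Cell Ranger (7.1.0 per the file headers, mm10 per the labels), 1 per region and tagged set. Whether intronic reads were counted is not given in the sources used here. The deposited values are raw counts. Cells with 200 to 7500 genes and at most 2% mitochondrial UMIs were kept. No doublet caller was run. Cells whose class led the next by under 2 gate genes stayed ungated (692), but cells holding fewer markers of another class were kept. A class needed 3 of its 10 gate genes and 2 more than any other class. The microglial states were the top 5% of an interferon score, then the top 15% and lowest 50% of a DAM minus homeostatic score, each set weighing the same. UMIs were summed per set and class or state, and sums of under 20 cells were left out.

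Sums were compared with edgeR 4.0.16 (TMM, filterByExpr, quasi-likelihood test, Benjamini-Hochberg adjustment over all genes tested, threshold 0.05). Regions were compared without covariates and states with the set as a block. DESeq2 1.42.0 was an alternative. SE is the unshrunken log2 estimate divided by the square root of F. Intervals and floors cover counting error only, since nothing else about depth was modelled. On simulated counts for the region comparison over 13276 genes, 80% of log2 changes of 1 and 97% of those of 2 were recovered. For the state comparison over 11674 genes these shares were 85% and 98%. The simulated means held no effect of single sets or of shared set numbers, and false calls are not given here.

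The numbers in the names of the sets were checked for pairing across regions: the deviations of same-numbered sets from their group means correlated at 0.567, 0.158, 0.575 and 0.128 over 12188 genes. The highest correlations with a set of another number were −0.106, −0.00388, 0.227 and −0.0224, in the same order. That of set 3 exceeds the same-number values of sets 2 and 4. The numbers were therefore taken to pair the sets, from the data and not from a label, less firmly for sets 2 and 4. The blocked fit is printed where it changes a call. Nothing in the labels says that the sets are separate animals, so p-values measure the spread between these sets. The exact test and the state fits count same-numbered sets of the regions as separate units. If those share a mouse, the number of sets overstates the replication.

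Named genes were all 10 members, the list genes that were called, are direct ligands or are paralogs, and the 3 genes most like each member (mean of at least 10 CPM). The members, marker lists and gene lists were chosen with earlier results of these data known. Alternatives covered normalization, test, filter, mitochondrial limit, gates, cuts, pairing and single sets. Leaving out cells with macrophage or monocyte gate genes, leaving out interferon-gated cells past the DAM cut, scaling by library size alone, and the list of 17 genes were chosen after seeing the data. The DAM score used 11 genes, since 1 of its list was not analysed here. Of the lists, 5 symbols had no row of their own and were not analysed here.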

Additional observations from a re-analysis of the deposited data

Results flagged for a closer look

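Of 100 groups of 4 sets examined for a set far from the others, 8 were set apart, and chance alone sets apart about 1 in 20 groups. All values are UMIs per 10000. In homeostatic-gated microglia these were Pirb in HPC set 3 (0.185, the others 0.268 to 0.285), Cd300lf in thalamus set 3 (0.0568, the others 0.146 to 0.158) and Vsir in thalamus set 1 (6.92, the others 7.92 to 8.03). In interferon-gated microglia they were Pirb in thalamus set 4 (0.182, the others 0.244 to 0.251, from 19 UMIs), Cd33 in HPC set 2 (2.12, the others 1.55 to 1.64) and Sirpa in HPC set 1 (5.59, the others 6.60 to 6.79). Over all microglia Siglece was high in thalamus set 2 (0.321, the others 0.214 to 0.224), and without that set its region difference passed the threshold. In T or NK cells Siglece was at 0 in thalamus set 3 (the others 0.0320 to 0.0366).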

How the results depend on the processing

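Of 8 members called between DAM-gated and homeostatic-gated cells, 8 to 9 were called when single sets were left out, and of 7 for interferon-gated cells 6 to 8. Over all genes 6207 of 11674 and 2979 of 10690 were called, and 5326 to 6282 and 2509 to 3090 without single sets. With macrophage or monocyte gate-gene cells left out the member counts were 6 (5 of the 8, and Cd200r1) and 4 (all among the 7). Of all genes 4192 of 10617 and 1579 of 9633 were then called. Pirb changed sign, to −0.28 and −0.045, and the cause was not tested. Over all microglia the regions differed in 2 members, in 2 to 4 without single sets and in 5 with the set number as a replicate block. In homeostatic-gated cells the count stayed at 0 in every alternative run, the replicate block included. In DAM-gated cells it was 0, where 160 of 9883 genes were called. It was 2 with DESeq2 (187 of 9883 genes), 3 without a low-count filter (519 of 19260) and 1 at a mitochondrial limit of 5% (145 of 9683). Looser gates gave 1 (181 of 9928), leaving out Malat1-poor cells 2 (318 of 10375) and narrower state cuts 1 (111 of 9057). The replicate block gave 3 (315 of 9883), and leaving out cells with other myeloid gate genes 2 (364 of 7694). Without single sets it was 0 to 3 (53 to 268 genes). For the interaction it was 0 (62 of 11674 genes), and 2 without the filter (209 of 22005). It was 1 without Malat1-poor cells (69 of 11687) and 0 to 1 without single sets (31 to 102 genes). The replicate block changed no call of a member beyond those given here and in the report; without the set block, Havcr2 in interferon-gated cells lost its call (−0.23, edgeR adjusted p = 0.0868). Class order gave 16 of 20 pairs under all alternatives run.

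Counts over all genes moved more: between regions 1752 genes were called over all microglia, 3886 with the block and 713 (without HPC set 2) to 3218 (without HPC set 1) without single sets. In homeostatic-gated cells these were 172, 667 and 56 to 571, in DAM-gated cells 160, 315 and 53 to 268, and for the interaction 62 and 31 to 102. Few DAM-gated cells in HPC, 30 to 320 a set, limit the comparisons within that state.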
